A study of Mus musculus with 4 samples.

Results

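The Hedgehog pathway genes described here are 8 of the 31053 genes counted in 4 single-cell libraries of mouse prostate tissue: the ligands *Shh* and *Ihh*, the receptors *Ptch1* and *Smo*, the transcription factors *Gli1*, *Gli2* and *Gli3*, and the secreted inhibitor *Hhip*. They were chosen by name, and all 8 had a row in each library. Adult cells came from prostates of P2-*Runx1*:RFP mice of the ICR (CD-1) strain, a reporter line in which red fluorescent protein (RFP) follows the proximal P2 promoter of *Runx1*; the mice were over 8 weeks old and were either intact or had been castrated over 4 weeks earlier. EPCAM+ cells of the AP (anterior), VP (ventral) and DLP (dorsolateral) lobes, sorted as RFP+ or RFP-, were tagged and pooled in 3 independent runs, with castrated cells in runs 1 and 2. Explant cells came from the urogenital sinus, the embryonic tissue that forms the prostate, of ICR (CD-1) embryos at E15.5, grown on filters with an insulin, transferrin and selenite supplement and 10 μM dihydrotestosterone. EPCAM+ explant cells were sorted at day 0 and after 1, 3 and 6 days of culture and read in 1 library, so each day is 1 pool without a replicate. The RFP allele was carried by intact and castrated mice alike, and day 0 is the tissue before culture, so that time in culture and the added androgen cannot be told apart in comparisons with day 0.

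Hedgehog ligands are made by the epithelium of the urogenital sinus and are known to act on the mesenchyme around it. In the absence of ligand, *Ptch1* holds *Smo* inactive; binding of the ligand to *Ptch1* releases *Smo*, which changes the GLI transcription factors from repressors to activators. *Ptch1*, *Gli1* and *Hhip* are themselves targets of the pathway, so their transcripts are commonly read as a sign of a response, and *Ptch1* and *Hhip* limit the spread of the ligand.

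*Shh* lies on chr5:28456815-28467256 and *Ihh* on chr1:74945315-74951672, both on the minus strand of GRCm38. *Ptch1* spans chr13:63508328-63573598 (minus), *Smo* chr6:29735503-29761365 (plus), *Gli1* chr10:127329882-127341974 (minus), *Gli2* chr1:118834132-119053619 (minus), *Gli3* chr13:15463235-15730026 (plus) and *Hhip* chr8:79965851-80058006 (minus). The 250 bases before a RefSeq start site (GRCm38.p6) are printed for 3 members, since *Ptch1* and *Hhip* are known targets of GLI proteins and both were higher in the collagen-rich explant cells described below, and *Ihh* is set beside them as a ligand. They were taken from chr13:63565736-63565985 for *Ptch1*, which is inside the gene span above and overlaps no annotated exon, from chr8:80058009-80058258 for *Hhip* and from chr1:74951673-74951922 for *Ihh*, all minus strand, 5′ to 3′. Capitals mark the letters CCACCC or, on the other strand, GGGTGG, the core of the motif that GLI proteins bind.
Ptch1: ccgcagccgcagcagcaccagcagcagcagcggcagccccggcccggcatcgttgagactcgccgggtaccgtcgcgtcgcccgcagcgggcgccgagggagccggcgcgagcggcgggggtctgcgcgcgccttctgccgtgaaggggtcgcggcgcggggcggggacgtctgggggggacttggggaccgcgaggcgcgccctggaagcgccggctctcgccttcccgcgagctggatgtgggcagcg
Hhip: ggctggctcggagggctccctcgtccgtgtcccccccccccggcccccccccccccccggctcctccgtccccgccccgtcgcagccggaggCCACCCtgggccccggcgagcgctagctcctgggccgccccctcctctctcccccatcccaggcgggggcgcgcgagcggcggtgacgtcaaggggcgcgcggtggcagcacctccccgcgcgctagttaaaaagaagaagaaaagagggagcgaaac
Ihh: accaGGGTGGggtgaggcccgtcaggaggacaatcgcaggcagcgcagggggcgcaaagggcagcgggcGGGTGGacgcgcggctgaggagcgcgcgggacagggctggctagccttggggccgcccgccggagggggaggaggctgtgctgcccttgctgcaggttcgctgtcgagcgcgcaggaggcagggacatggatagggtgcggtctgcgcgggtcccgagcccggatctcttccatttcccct
The longer motif GACCACCCA was searched on both strands and was in 0.225% of 32851 such windows and in none of the 6 members with an entry (*Ihh*, *Ptch1*, *Smo*, *Gli2*, *Gli3* and *Hhip*). The core CCACCC, which is contained in the longer motif, was in 28.1% of the windows. It was found 2 times for *Ihh* and for *Gli2*, 1 time for *Smo*, *Gli3* and *Hhip* and 0 times for *Ptch1*. These matches describe the letters of a short window and say nothing about binding.

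The matrices held 2612, 6034 and 3028 cell barcodes in adult runs 1, 2 and 3 and 7474 in the explant library, and library pairs shared 0 to 6 barcodes. After the quality limits and assignment to 1 sorted population, 824, 2194, 1673 and 5198 cells were kept, with median totals of 9750.0 to 14784.5 UMIs (unique molecular identifiers, each counting 1 captured transcript). Cells were divided by marker genes that include no member. Explant cells with *Col1a1*+*Col3a1* at 20 or more UMIs per 10000 were called collagen-high, and other cells with an *Epcam* UMI were called Epcam-positive. Adult cells with an *Epcam* UMI formed the basal gate at *Krt5*+*Krt14* of 20 or more per 10000 and the luminal gate under 5. Levels are given as CPM, the UMIs of a gene for each 1000000 UMIs summed over the cells of a group, and are compared only within a gene, since the kit reads the 3′ end. Intervals are exact 95% Poisson or binomial intervals and cover counting error only.

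The explant cells divided into 5024 Epcam-positive cells and 60 collagen-high cells, with 114 in neither gate. The collagen-high cells had passed an EPCAM+ sort, numbered 10, 31, 11 and 8 at days 0, 1, 3 and 6, and 10 of the 60 had an *Epcam* UMI. Their names were set beside marker levels. The summed level of 8 mesenchymal genes was 6836 to 9495 CPM over the 4 days, against 142 to 476 in Epcam-positive cells. All 8 genes were detected on each day. This list holds *Col1a1* and *Col3a1*, which set the collagen gate, so part of its contrast was fixed by the gate. The summed level of 5 epithelial genes was 80.7 to 101 CPM in collagen-high cells and 2904 to 4517 in Epcam-positive cells. It includes *Epcam*, which sets the Epcam-positive class, so this contrast was also fixed in part. Smooth muscle genes summed to 67.1 and 318 CPM in collagen-high cells at days 0 and 1 and to 3249 and 4622 at days 3 and 6, so these few cells were not alike across days. The gate had no gap at its limit, with 62 cells at 10 to 20 and 43 at 20 to 40 collagen UMIs per 10000.

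In the explants the ligand *Shh* was found almost entirely in Epcam-positive cells, and the receptors *Ptch1* and *Smo*, the transcription factor *Gli1* and the inhibitor *Hhip* were higher in collagen-high cells. *Shh*, the main Hedgehog ligand of this tissue, measured 148, 129, 77.8 and 47.1 CPM in Epcam-positive cells at days 0, 1, 3 and 6. In collagen-high cells it had 0, 1, 0 and 0 UMIs. The intervals of the classes were apart at days 0, 1 and 3, whereas at day 6 the upper bound for 0 UMIs, 55.2 CPM, was above the Epcam-positive level. A *Shh* UMI was present in 65.4% of Epcam-positive cells at day 0 (95% interval 61.6 to 69.0), where the median cell had 17323.0 UMIs, and in 1 of the 60 collagen-high cells, where the median was 7545.5. On summed counts of days 0, 1 and 3, with the day as a block, *Shh* was lower in collagen-high cells by a log2 difference of -5.97 (SE 0.67, adjusted p = 2.4e-17). The pooled counts were 1 against 5998 UMIs, a level 45.0-fold lower (interval 8.08 to 1778). Day 6 was not in this test because it held fewer than 10 collagen-high cells, and the p-values of this comparison measure the spread between 3 days of 1 library.

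*Ihh*, the second ligand, had no UMI in collagen-high cells. Its level in Epcam-positive cells over the 4 days was 2.21 CPM, under the 6.48 CPM that 3 UMIs would give in the 463100 UMIs of the collagen-high cells, so a difference between the classes was not detectable at this depth. *Ihh* and *Gli2* did not pass the filter on low counts and were not tested.

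*Ptch1*, the receptor, measured 112, 105, 115 and 239 CPM in collagen-high cells and 35.0, 25.7, 22.1 and 27.1 in Epcam-positive cells at days 0, 1, 3 and 6. The values of the classes did not overlap. The log2 difference was 1.62 (SE 0.36, adjusted p = 8.4e-05). *Smo*, the signal transducer that *Ptch1* holds inactive, measured 179, 132, 150 and 194 CPM in collagen-high cells and 56.2, 47.5, 49.1 and 57.6 in Epcam-positive cells. Its values did not overlap either, and the log2 difference was 1.18 (SE 0.29, adjusted p = 7.0e-04). Without day 1, which holds 31 of the 60 collagen-high cells, the adjusted p for *Smo* was 0.063, and without the collagen-high cells that had an *Epcam* UMI it was 0.091.

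The targets *Gli1* and *Hhip* were at low levels in Epcam-positive cells, although these many cells held 69 *Gli1* UMIs against 8 in the collagen-high cells. *Hhip*, which binds and sequesters the ligands, had 4, 5, 8 and 2 UMIs in collagen-high cells, or 44.7, 22.7, 92.2 and 29.9 CPM, against at most 0.253 CPM in Epcam-positive cells. Over days 0, 1 and 3 the counts were 17 against 12 UMIs, a ratio of 189 (interval 85.0 to 433), and the log2 difference was 7.26 (SE 0.92, adjusted p = 1.4e-13). *Gli1*, the activator whose own transcription follows the pathway, had 1, 3, 2 and 2 UMIs in collagen-high cells. These counts equal 11.2, 13.6, 23.0 and 29.9 CPM, against 1.45, 0.261, 0.462 and 0.890 in Epcam-positive cells. Its log2 difference was 4.35 (SE 1.14, adjusted p = 0.0014), with an adjusted p of 0.348 without day 1 and 0.109 without day 3. Both genes passed the filter on low counts through the collagen-high sums alone.

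The remaining GLI factors gave weaker contrasts. *Gli3*, chiefly a repressor of the pathway when no ligand is present, measured 22.4, 22.7, 23.0 and 14.96 CPM in collagen-high cells from 2, 5, 2 and 1 UMIs. In Epcam-positive cells it measured 14.8, 9.14, 5.68 and 8.54 CPM. The log2 difference of 0.87 (SE 0.70) did not pass the test (adjusted p = 0.449). *Gli2*, the main activator downstream of *Smo*, had 3 UMIs in the 60 collagen-high cells and 11 in the 5024 Epcam-positive cells. These counts give a ratio of 52.3 with an interval of 9.36 to 198.

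Of the 6 members tested, 4 were higher and 1 was lower in collagen-high cells. *Shh*, *Gli1* and *Hhip* could pass the filter only through the class where they were high. Neither the count nor the median is therefore support for a direction of the members. Over all 11952 genes tested, 7.39% were higher and 11.2% lower. The median log2 difference was 1.40 over the 6 members and -0.24 over all genes tested. On the CPM scale the median gene was 0.36 log2 units higher in collagen-high cells, so the CPM values carry this shift and the tests, with TMM scaling, do not. In the collagen-high cells 1 UMI equals 11.2, 4.55, 11.5 and 14.96 CPM at days 0, 1, 3 and 6.

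Among 30 other genes of the pathway, 21 were tested. In collagen-high cells 5 were higher and 1 was lower, beside 7.39% higher and 11.2% lower over all genes tested. The co-receptors *Gas1* and *Boc*, which help the ligand to bind *Ptch1*, were higher by log2 differences of 5.54 (adjusted p = 9.2e-70) and 2.93 (adjusted p = 9.9e-05). *Foxf1* and *Foxf2*, forkhead factors known to respond in mesenchyme, were higher by 7.57 (adjusted p = 7.1e-20) and 7.87 (adjusted p = 2.6e-16), and the signalling factor *Bmp4* by 4.36 (adjusted p = 3.6e-27). *Ccnd1*, a cyclin that also responds to many other signals, was lower by a log2 difference of -1.39 (adjusted p = 2.7e-05). The list median of 0.42 compares with -0.24 over all genes tested.

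**Figure D1:**
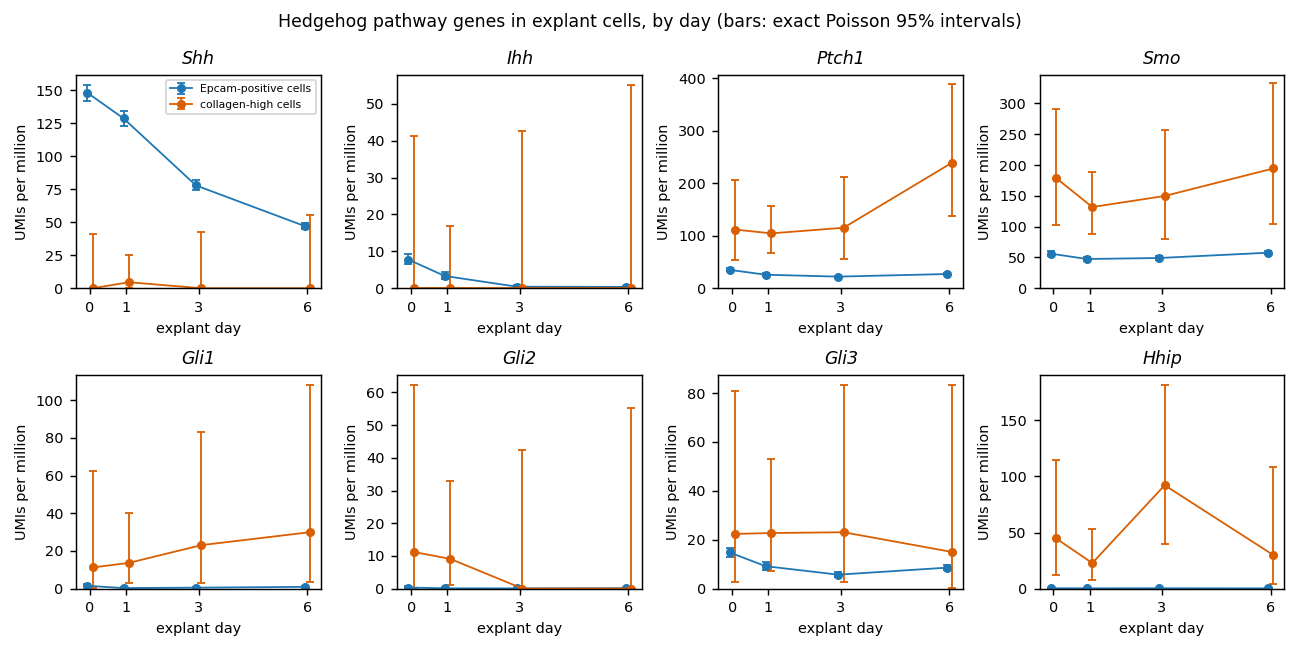
Levels of the 8 genes in CPM (vertical axes, each on its own linear scale) by explant day, for Epcam-positive cells (blue) and collagen-high cells (orange); points are 1 pool per day and bars are exact Poisson 95% intervals. *Shh* falls from 148 to 47.1 in Epcam-positive cells and is at or near 0 in collagen-high cells, whereas *Ptch1*, *Smo* and *Hhip* lie higher in collagen-high cells on each day.

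Over the days of culture, both ligands decreased in Epcam-positive cells while *Ptch1* and *Smo* moved by less than 2-fold. With 1 pool per day no test was possible, so a change is counted only where it was at least 2-fold with intervals of the levels that did not overlap. *Shh* measured 148 (interval 142 to 154) CPM at day 0 and 47.1 (44.9 to 49.4) at day 6, a level 3.14-fold lower (interval 2.95 to 3.35). Its share of cells with a UMI was 65.4, 67.9, 57.6 and 40.1% at days 0, 1, 3 and 6. After each cell was thinned to 5000 UMIs, the shares were 41.4, 41.0, 29.5 and 19.7%, so days 0 and 1 lay close together and days 3 and 6 below them. *Ihh* fell from 7.77 CPM at day 0 to 3.33 at day 1 and 0.416 at day 3, and measured 0.362 at day 6. This was 21.5-fold lower at day 6 than at day 0 (interval 12.1 to 41.5, from 123 and 13 UMIs). *Ihh* fell 2.33-fold from day 0 to day 1 (interval 1.67 to 3.30) and 8.01-fold from day 1 to day 3 (interval 3.90 to 18.5), and the levels of days 3 and 6 had overlapping intervals.

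Of the 7 members with enough UMIs for the comparison of day 6 with day 0, *Shh* and *Ihh* were lower and none was higher. Over 14879 genes, 11.3% were lower and 5.73% higher by the same rule, and the median gene had a ratio of 0.877. *Ptch1* had a ratio of 0.773 (interval 0.695 to 0.859), *Smo* 1.03 (0.948 to 1.11), *Gli3* 0.578 (0.486 to 0.688) and *Gli1* 0.613 (0.348 to 1.10). From day 0 to day 1, 2 of 6 members were lower, *Ihh* and *Gli1* (23 and 4 UMIs), against 3.18% of all genes lower and 2.80% higher. From day 1 to day 3, *Ihh* alone of 6 was lower, against 3.74% of genes lower and 1.86% higher, and from day 3 to day 6 none of 7 passed, against 2.58% lower and 1.91% higher.

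Summed marker levels of Epcam-positive cells differed between days, in part in other directions than the ligands. The 5 epithelial genes summed to 4517, 4480, 3569 and 2904 CPM and the 8 mesenchymal genes to 174, 142, 293 and 476 at days 0, 1, 3 and 6. The 7 mesonephric genes summed to 772, 869, 684 and 298 CPM, the 5 urothelial genes to 339, 479, 345 and 278, the 4 basal genes to 6105, 5501, 6712 and 7671 and the 4 stress genes to 6182, 5770, 4877 and 2978 at the same days. The part of these changes in the ligand levels was not tested beyond the marker gates. The ligands were measured again inside each marker gate, listed from the first day to the last. *Shh* was highest in cells of no marker gate (207, 156, 87.0 and 47.1 CPM) and in keratin-basal cells with *Krt5*+*Krt14* of 20 or more (167, 173, 87.7 and 54.0). It was lower in urothelial cells, which carry uroplakin UMIs (129, 74.2, 48.3 and 41.4), and in *Krt4*-*Psca* cells (99.7, 102, 45.2 and 30.3). The lowest values at day 0 were those of mesonephric cells, which carry *Pax2*, *Pax8*, *Lhx1* or *Hoxb7* UMIs, at 55.4 CPM, followed by 48.6, 43.5 and 24.8.

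*Shh* was lower at day 6 than at day 0 in each of the 5 gates. Outside the mesonephric and urothelial gates the day 6 to day 0 ratio was 0.258, and within the mesonephric gate it was 0.448. At day 0 the order of the gates was other, keratin-basal, urothelial, *Krt4*-*Psca* and mesonephric. Among neighbours in that order, overlapping intervals were those of keratin-basal with urothelial cells and of urothelial with *Krt4*-*Psca* cells. *Ihh* at day 0 was highest in the urothelial gate, at 30.1 CPM (36 UMIs in 49 cells). It had 0 UMIs in 71 keratin-basal cells and measured 7.68, 5.25 and 5.06 CPM in the other, *Krt4*-*Psca* and mesonephric gates, whose intervals overlapped. Urothelial cells remained highest for *Ihh* at day 1, at 10.6 CPM from 9 UMIs, with an interval that overlapped that of *Krt4*-*Psca* cells, and later days held at most 8 *Ihh* UMIs in any gate. *Ptch1* at day 0 was 43.0 in mesonephric, 37.6 in keratin-basal, 32.4 in other, 23.4 in urothelial and 22.7 CPM in *Krt4*-*Psca* cells. In urothelial cells it measured 13.0, 9.43 and 7.10 at the later days, and in mesonephric cells 19.3, 18.7 and 27.3. Of the 23 *Gli1* UMIs in Epcam-positive cells at day 0, 14 were in the 201 mesonephric cells.

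**Figure D2:**
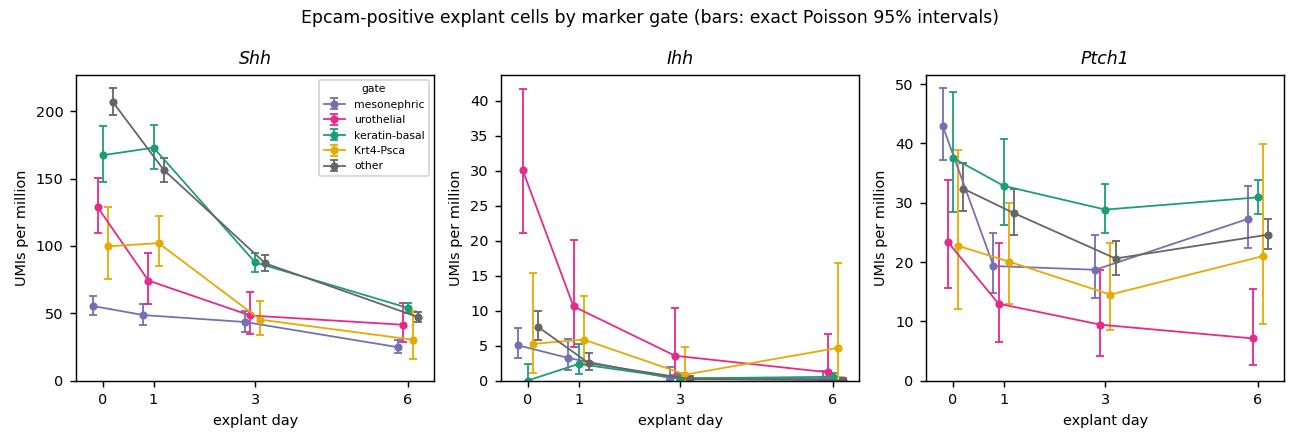
CPM (vertical axes, linear) of *Shh*, *Ihh* and *Ptch1* in Epcam-positive explant cells by day and marker gate; points are 1 pool per day and bars are exact Poisson 95% intervals. *Shh* is lower at day 6 than at day 0 in all 5 gates, and *Ihh* at day 0 is highest in the urothelial gate, at 30.1.

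Among the 30 other pathway genes, 25 could be compared between days 6 and 0 in Epcam-positive cells, and 7 were lower and 2 higher. Over all genes compared, 11.3% were lower and 5.73% higher by the same rule. The lower ones included *Hhat*, the enzyme that attaches palmitate to the ligands (3.03 and 1.28 CPM at days 0 and 6), and *Disp1*, which releases them (4.61 and 2.11). The co-receptor *Lrp2* (3.54 and 0.278), *Bmp4* (9.22 and 4.17), *Mycn* (29.0 and 1.53) and *Osr1* (44.8 and 13.8) were also lower. The co-receptor *Boc* (4.23 and 12.1) and *Ccnd1* (138 and 376) were higher.

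Over the 8 explant sums of 4 days and 2 classes, the genes whose log2(CPM+1) followed *Shh* most closely among 6170 genes included *Acer2* (Pearson r = 0.999), *Ppl* (0.996), *Esrp1* (0.993) and *S100a14* (0.993). Those closest to *Ptch1* were *Mprip* (0.992), *Ankrd10* (0.991), *Ppm1a* (0.991), *Vash2* (0.990) and *Fam208a* (0.985). The 8 sums share 1 library and fall into 2 classes, so these values describe likeness between classes more than within them.

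In the intact adult prostate the 2 ligands lay in different compartments: *Shh* in basal cells and *Ihh* in luminal cells. *Gli3* was also higher in basal cells, and *Ptch1* and *Smo* were found in both. Intact cells numbered 1181 in the basal gate and 1545 in the luminal gate, and the basal marker genes summed to 10258 to 11198 CPM in the former and 216 to 1200 in the latter. These marker genes include *Krt5* and *Krt14*, which set the gates, so part of this contrast was fixed in advance. The p-values below measure the spread between 3 run sums per group. Each run was a separate pool of mice that gave both sums, and the main test did not pair them.

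*Shh* measured 43.2, 24.9 and 27.4 CPM in basal cells of runs 1, 2 and 3, and 4.22, 1.05 and 1.44 in luminal cells. The lowest basal value was well above the highest luminal one. The log2 difference, basal over luminal, was 3.42 (SE 0.36, adjusted p = 3.4e-04), with means of 31.8 ± 9.93 and 2.24 ± 1.73 CPM (SD, n = 3). Immune cells, which should lack *Shh*, had 1.64 CPM in run 2 (3 UMIs in 244 cells), above the luminal value of that run. A *Shh* UMI was present in 22.7% of basal, 2.39% of luminal and 1.23% of immune cells of run 2, whose medians were 9589.5, 26141.0 and 6395.5 UMIs per cell. The part of free RNA in the luminal share was not tested.

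*Ihh* measured 35.8, 2.06 and 6.07 CPM in luminal cells of runs 1, 2 and 3. In basal cells it had 0, 1 and 0 UMIs. The log2 difference was -7.69 (SE 1.55, adjusted p = 0.0058), and the pooled counts of 1 and 458 UMIs give a level 155-fold lower in basal cells (interval 27.6 to 6119). The luminal values varied widely, and runs differed in the cells sorted: AP RFP+ cells were 203 of 378 luminal cells in run 1, 104 of 587 in run 2 and 160 of 580 in run 3. With AP RFP+ cells alone on both sides, the log2 difference of *Ihh* was -9.78, that of *Shh* 2.52 and that of *Gli3* 4.99, and each passed the test. Immune cells of the 3 runs held 0 *Ihh* UMIs.

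*Gli3* measured 21.3, 17.4 and 19.7 CPM in basal cells and 0.334, 0.369 and 0.876 in luminal cells of runs 1, 2 and 3. The groups were far apart in each run, with a log2 difference of 4.52 (SE 0.41, adjusted p = 1.9e-04). Immune cells of run 2 had 1.09 CPM, above each luminal value. *Ptch1* measured 23.2, 11.5 and 11.8 CPM in basal and 10.3, 4.43 and 5.88 in luminal cells. *Smo* measured 42.1, 29.8 and 22.8 in basal and 22.6, 6.43 and 8.63 in luminal cells. Both were higher in basal cells within each run, by log2 differences of 0.65 (SE 0.28, adjusted p = 0.092) and 0.88 (SE 0.32, adjusted p = 0.059) that did not pass the test. With the run as a block the adjusted p was 0.024 for *Ptch1* and 0.0090 for *Smo*. Of 14 alternatives, the block alone gave a call for *Ptch1*, while *Smo* was called under 5, with adjusted p from 0.0041 without run 1 to 0.734 in AP RFP+ cells alone. In AP RFP+ cells alone the log2 differences were 0.17 and 0.15, so the size of both depended on the populations in the gates. Immune cells of run 2 had 5.47 CPM of each, close to the luminal values of that run.

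*Gli1*, *Gli2* and *Hhip* were at or near 0 in the adult epithelium. *Gli1* had 7 UMIs in basal and 2 in luminal cells, *Gli2* had 0 in both, and *Hhip* had 7 and 19, of which 17 came from 1 AP RFP- cell of run 1. None of the 3 passed the filter on low counts. Of the 5 members tested, 2 were higher and 1 lower in basal cells, against 43.6% of 11703 genes that passed in either direction (21.7% higher, 22.0% lower). *Ihh* passed the filter through the luminal sums alone and *Gli3* through the basal sums alone. *Shh* could not have passed on its luminal sums, so these counts are no support for a direction of the members. On the CPM scale the median gene was 0.52 log2 units higher in basal cells, a shift that TMM scaling removes.

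Of 30 other pathway genes, 15 were tested between compartments; 9 were higher and 1 lower in basal cells, beside 21.7% and 22.0% of all genes tested. *Gas1* was higher by a log2 difference of 4.44 (adjusted p = 0.0037), *Bmp4* by 2.97 (adjusted p = 2.5e-04), *Hhat* by 2.31 (adjusted p = 0.026), *Arl13b*, a small GTPase of the cilium, by 1.93 (adjusted p = 0.0012) and *Boc* by 1.80 (adjusted p = 4.2e-04). *Ccnd1*, *Cdon*, *Spop* and *Csnk1a1* were higher by 1.66, 0.92, 0.59 and 0.45. The transcription factor *Osr1* was lower by a log2 difference of -5.09 (adjusted p = 0.0079). The list median of 0.59 compares with -0.00 over all genes tested. The mesenchymal list summed to 3763 to 3939 CPM in basal and 46.3 to 98.7 in luminal cells, nearly all of it *Dcn*, which was at 3669, 3720 and 3929 CPM in basal cells of runs 1, 2 and 3. *Col1a1*, which defines fibroblasts with *Col3a1*, was at 10.7, 4.35 and 0.283 CPM. The study names *Dcn* among further basal markers in its explant clusters. The part of fibroblast RNA in the values of the basal cells was not tested.

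**Figure D3:**
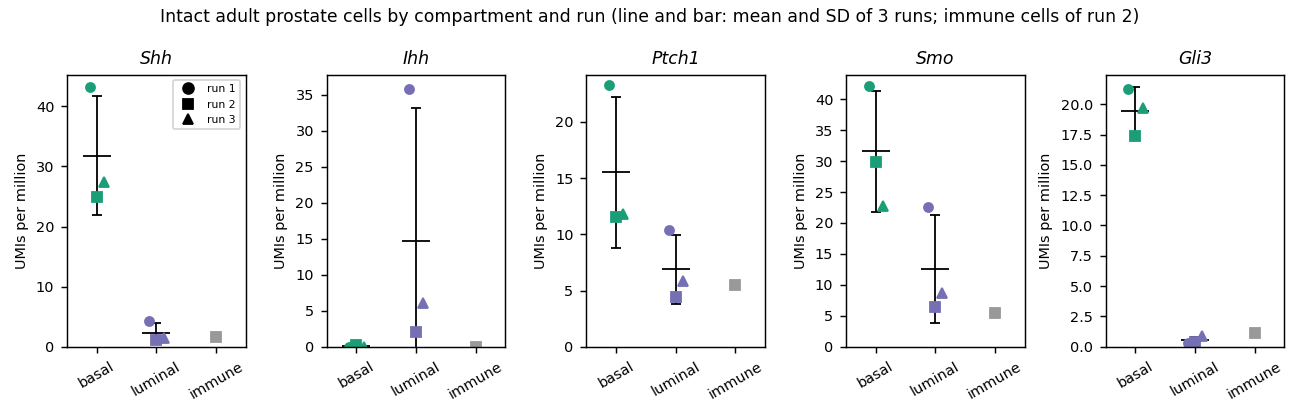
CPM (vertical axes, linear, from 0) of 5 members in intact basal-gate, luminal-gate and immune cells; symbols are runs, lines and bars the mean and SD of 3 runs, and immune cells are those of run 2. *Shh* and *Gli3* separate basal from luminal cells in each run, *Ihh* is found in luminal cells with run 1 highest, and the SD bar of luminal *Ihh* continues below the axis.

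Within the luminal gate *Ihh* was concentrated in RFP+ cells of the anterior lobe. It measured 89.5, 19.1 and 45.0 CPM in AP RFP+ cells of runs 1, 2 and 3 and 6.17, 0.291 and 0 in AP RFP- cells (10, 1 and 0 UMIs). The RFP+ value was higher in each run, and the log2 difference was 4.49 (SE 0.77, adjusted p = 0.0042). *Smo* measured 43.5, 19.1 and 22.0 in AP RFP+ and 12.3, 2.33 and 3.59 in AP RFP- cells, with a log2 difference of 2.17 (SE 0.48, adjusted p = 0.013). The *Smo* call was lost without run 2 (adjusted p = 0.084) and without run 3 (0.064). *Ptch1* measured 18.0, 8.66 and 16.4 in RFP+ and 13.0, 6.11 and 8.37 in RFP- cells. Its log2 difference of 0.58 (SE 0.32) did not pass (adjusted p = 0.251). *Ihh* and *Smo* made 2 of 3 members tested higher, against 11.2% of 9038 genes higher and 10.4% lower. Both passed the filter only through the RFP+ sums, so this count is no support for a direction of the members. With the run as a block, 3056 genes passed in place of 1953.

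The RFP+ luminal cells of this lobe were also higher in *Krt4*, a marker of proximal luminal cells (log2 difference 3.16, adjusted p = 0.014). When intact luminal-gate cells were split at *Krt4* plus *Psca*, another such marker, of 5 UMIs per 10000, a split chosen after earlier values were seen, *Ihh* measured 97.0, 23.7 and 55.0 CPM in the high cells of runs 1, 2 and 3. In the low cells it measured 2.07, 0.115 and 1.17. *Smo* followed the split with 50.1, 28.2 and 26.1 against 7.42, 4.48 and 6.88, *Ptch1* with 19.7, 7.68 and 19.3 against 5.17, 4.14 and 4.54, and *Shh* with 8.76, 10.2 and 4.12 against 1.72, 0.230 and 1.17. All 4 genes were higher in the high cells of each run. When AP luminal cells with *Krt4*+*Psca* under 5 were compared by RFP, 21 of 6141 genes passed and no member had enough counts to be tested.

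Of 11 other pathway genes tested between AP RFP+ and RFP- luminal cells, *Osr1* (log2 difference 3.63), *Ccnd1* (1.82) and *Arl13b* (1.30) were higher in RFP+ cells. *Scube2*, a secreted protein that helps release the ligand, was lower (-3.22), as was *Spop* (-0.61). These 3 higher and 2 lower genes stand beside 11.2% higher and 10.4% lower over all genes of this test. Between RFP+ and RFP- luminal cells of the VP, *Smo* was the only member with enough counts for the test. It was at 9.23, 5.52 and 7.93 in RFP+ and 7.14, 6.45 and 3.14 CPM in RFP- cells (log2 difference 0.40, SE 0.35, adjusted p = 0.968), against 0.238% of 7972 genes passing, all of them lower. This does not show equal levels, since the pooled *Smo* ratio of 1.23 had an interval of 0.809 to 1.94.

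Between lobes, RFP+ luminal cells of the AP had more ligand transcripts than those of the VP. *Shh* measured 8.52, 4.62 and 5.63 CPM in AP RFP+ cells and had 0, 2 and 1 UMIs in VP RFP+ cells, the pooled ratio being 43.0 (interval 13.8 to 216). The log2 difference was 4.05 (SE 0.50, adjusted p = 0.0011). *Ihh* measured 2.48, 0.216 and 0.142 in VP RFP+ cells, and its log2 difference was 5.31 (SE 0.77, adjusted p = 0.0018). Both genes passed the filter through the AP sums alone. *Ptch1* measured 2.48, 3.46 and 3.54 in VP RFP+ cells and had a log2 difference of 1.00 (SE 0.29, adjusted p = 0.033), a call lost without run 1 (adjusted p = 0.130), run 2 (0.088) or run 3 (0.170) and with DESeq2 (0.077). *Smo*, at 9.23, 5.52 and 7.93 in VP RFP+ cells, had a log2 difference of 0.81 (SE 0.29, adjusted p = 0.066; 0.022 with the run as a block). Of 4 members tested, 3 were higher in the AP, against 27.8% of 9503 genes that passed in either direction (15.2% higher, 12.5% lower). *Ptch1*, like the ligands, could not have passed the filter on its VP sums, so this count is no support for a direction of the members. On the CPM scale the median gene was 2.16-fold higher in the AP, so the fitted differences are smaller than the ratios of levels. Among 11 other pathway genes tested, *Osr1* (4.90), *Ccnd1* (4.35) and *Arl13b* (1.04) were higher in the AP and *Spop* (-0.52) lower, beside the same shares of all genes.

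Ranked by the mean of 3 runs, luminal *Ihh* was highest in AP RFP+ cells (51.2 ± 35.6 CPM, SD, n = 3), followed by DLP RFP- (5.90 ± 7.11), AP RFP- (2.15 ± 3.48), VP RFP+ (0.947 ± 1.33) and VP RFP- cells (0.857 ± 0.895). Only the first step exceeded the spread, since AP RFP+ values began at 19.1 and DLP RFP- values ended at 14.1; each later pair of neighbours overlapped. Luminal *Shh* ran from AP RFP+ (6.26 ± 2.02) over DLP RFP- (4.40 ± 3.70) and AP RFP- (2.40 ± 0.069) to VP RFP+ (0.119 ± 0.110), with 0 UMIs in VP RFP- cells. Neighbours among the first 3 overlapped, and AP RFP- values were all above those of the VP. Luminal *Ptch1* ran in the order AP RFP+ (14.3 ± 4.97), AP RFP- (9.15 ± 3.48), DLP RFP- (6.12 ± 1.54), VP RFP+ (3.16 ± 0.589) and VP RFP- (2.40 ± 0.635), with a gap only between the DLP and the VP. These ranks use CPM, on which the median gene was 2.16-fold higher in AP than in VP RFP+ cells. The shift between the DLP and the VP was not measured, so the *Ptch1* gap may lie within it. Luminal *Smo* was 28.2 ± 13.3 in AP RFP+ cells, whose values lay above the 2.33 to 14.1 of all other populations, which overlapped each other. The tag of intact DLP RFP+ cells failed in runs 1 and 2, so this population could be assigned in run 3 alone, where *Shh* was at 0.955, *Ihh* at 1.27 and *Ptch1* at 4.77 CPM.

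**Figure D4:**
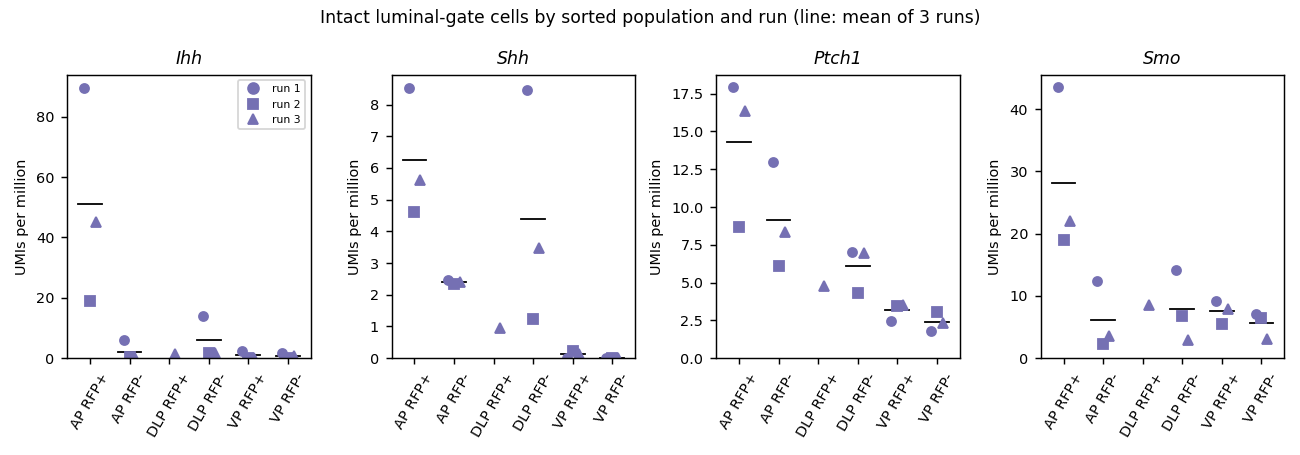
CPM (vertical axes, linear, from 0) of members in intact luminal-gate cells by sorted population; symbols are runs and lines the mean of 3 runs, with DLP RFP+ in run 3 only. *Ihh* in AP RFP+ cells, from 19.1 to 89.5, lies above all other populations.

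RFP+ and RFP- basal cells were tested in the AP, where no member passed. *Shh* averaged 36.5 ± 8.54 CPM in RFP+ and 35.6 ± 7.24 in RFP- cells (SD, n = 3; log2 difference -0.01, SE 0.26), and *Gli3* averaged 19.8 ± 2.39 and 22.5 ± 9.07 (log2 difference -0.26, SE 0.33). *Ptch1* averaged 15.6 ± 7.24 and 14.5 ± 8.98, and *Smo* 31.0 ± 10.3 and 27.7 ± 11.5 (log2 differences 0.16 and 0.13). None of the 4 tested passed, and neither did any of 7561 genes (0.0%) with edgeR, of which 76 had an unadjusted p under 0.05; DESeq2 also called 0, and 18 passed with the run as a block. Basal *Shh* ran from 36.5 ± 8.54 in AP RFP+ to 29.2 ± 10.5 in VP RFP+ and 26.7 ± 10.0 in DLP RFP- cells, with overlapping values throughout. Basal VP RFP- cells were enough in runs 2 and 3 only, so RFP was not tested in VP basal cells. In these runs *Shh* was at 21.8 and 11.8 CPM in VP RFP- and at 20.4 and 26.4 in VP RFP+ cells. *Gli3* was at 14.0 and 13.5 CPM in VP RFP- cells (9 and 8 UMIs) and at 23.8 and 26.4 in VP RFP+ cells (14 and 5 UMIs), higher in RFP+ cells of both runs. Over 3 runs basal *Gli3* was 25.8 ± 1.77 in VP RFP+ and 17.4 ± 3.08 in DLP RFP- cells.

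Castration was read within run 2, which holds nearly all of the 979 castrated cells, as 1 pool of mice without a replicate; castration and the mice sampled cannot be told apart. In basal cells *Shh* was at 24.3 CPM in castrated and 24.9 in intact cells (ratio 0.977, interval 0.616 to 1.51), and *Smo* at 29.3 and 29.8 (ratio 0.983, interval 0.648 to 1.46). *Gli3* was at 24.3 and 17.4 (ratio 1.40, interval 0.860 to 2.22) and *Ptch1* at 6.71 and 11.5 (ratio 0.583, interval 0.234 to 1.27). None of the 4 passed the rule of 2-fold with separate intervals, against 1.55% of genes higher and 4.94% lower. This does not show equal levels, since the intervals of *Gli3* and *Ptch1* reach past 2-fold. The median gene had a ratio of 0.868.

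In AP RFP+ luminal cells *Ihh* was lower after castration, at 3.57 CPM in 200 castrated cells (12 UMIs) and 19.1 in 104 intact cells (33 UMIs). This is 5.35-fold lower (interval 2.69 to 11.4), and *Ihh* was the only 1 of 4 members to pass the rule, against 5.64% of genes lower and 6.54% higher, with a median ratio of 1.14. *Smo* was at 9.81 and 19.1 (ratio 0.515, interval 0.308 to 0.860), *Ptch1* at 4.16 and 8.66 (0.480, interval 0.215 to 1.07) and *Shh* at 1.78 and 4.62 (0.386, interval 0.110 to 1.27). All 4 point estimates were below 1. Over all luminal cells of run 2, cells with *Krt4*+*Psca* of 5 or more were 23 of 573 castrated and 100 of 587 intact cells. The study reports that *Psca* is androgen-regulated and fell with castration in its proximal luminal cluster, whereas *Krt4* did not vary. This split can therefore not tell a change of the mix of cells from a fall of *Psca*. Within the cells at 5 or more, *Ihh* was at 10.2 (3 UMIs) in castrated and 23.7 CPM in intact cells, and *Smo* at 30.7 and 28.2. The part of the mix of luminal cells in the lower *Ihh* was not tested.

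Over all luminal cells of run 2, *Shh* was the only 1 of 5 members to pass the rule, higher after castration, with 29 against 20 UMIs (2.83 and 1.05 CPM, ratio 2.68, interval 1.47 to 5.003). However, 21.6% of genes were higher and 3.49% lower by the same rule, and the median ratio was 1.48. Of the 29 castrated UMIs, 17 came from 150 DLP RFP+ cells, a population whose intact counterpart could not be assigned in this run because its tag failed. The call was lost after thinning to 5000 UMIs per cell (ratio 2.46) and without the 5% of cells with the most UMIs (2.24). *Ihh* was at 2.63 and 2.06, *Ptch1* at 5.36 and 4.43 and *Smo* at 10.3 and 6.43 CPM. In AP RFP- luminal cells 1 of 3 members passed: *Smo* was at 11.2 in castrated and 2.33 in intact cells, from 11 and 8 UMIs (ratio 4.81, interval 1.76 to 13.8), against 4.05% of genes higher and 6.42% lower. After thinning to 5000 UMIs per cell this ratio was 1.59. In VP RFP+ luminal cells, where 34.4% of genes were higher, 1.85% lower and the median ratio was 1.85, *Ptch1* (1.96, interval 1.02 to 3.64) and *Smo* (1.45, interval 0.819 to 2.47) did not pass. In DLP RFP- luminal cells, with 1.62% of genes higher and 3.71% lower, neither *Ptch1* (2.25, interval 0.563 to 8.24) nor *Smo* (0.859, interval 0.154 to 3.25) passed, nor did any of 4 members in AP RFP+ basal cells (0.979% higher, 5.69% lower) or VP RFP+ basal cells (1.38% higher, 1.94% lower), where *Smo* had 0 UMIs in 20 castrated and 23 in 52 intact cells. *Gli2* had 0 UMIs in castrated and intact basal and luminal cells of run 2.

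**Figure D5:**
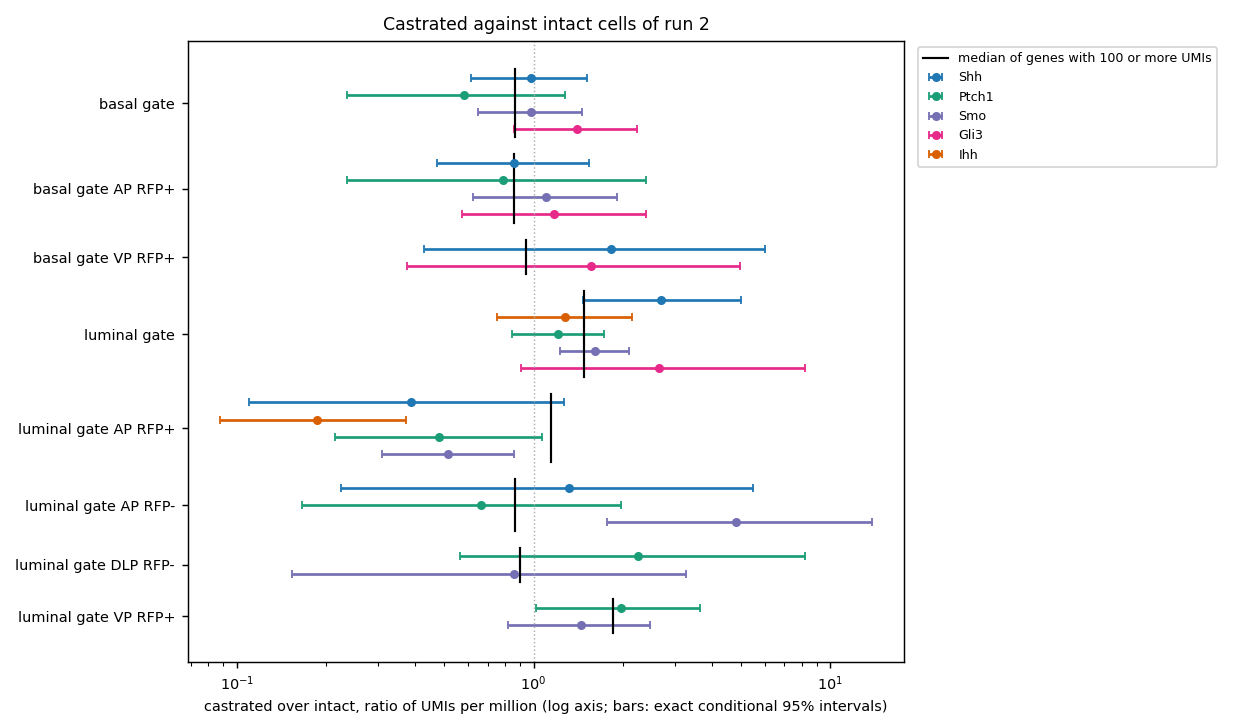
Ratio of CPM in castrated over intact cells of run 2 (horizontal log axis) for members with at least 10 UMIs and none at 0 in either group; points are ratios, bars exact conditional 95% intervals, and black lines the median ratio of genes with 100 or more UMIs. *Ihh* in AP RFP+ luminal cells, at 0.187, lies farthest below 1, and *Smo* in AP RFP- luminal cells, at 4.81, farthest above.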

How the data were processed

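Per the labels, the authors' processing used Cell Ranger 3.1.0 and Seurat 3.1.5 with mm10 (GRCm38), on 3′ droplet libraries of the version 3 kit with MULTI-seq tags. The deposited matrices hold raw UMI counts of 31053 genes, beside separate tag counts per cell; the totals per library were 35051876, 86381807, 40087244 and 121090404 UMIs. No column of other samples was present (0). From them, cells with 750 to 7500 genes and under 10% mitochondrial UMIs (adult) or over 1000 genes and under 7.5% (explant) were kept where 1 tag passed its threshold, cells with several tags were left out, and no doublet caller was run, although doublets with untagged cells may remain: per the study's methods the tag of intact DLP RFP+ cells failed in runs 1 and 2, where 598 and 1120 cells had no tag (run 3: 118).

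UMI counts were summed per run or day and gate (at least 10 cells) and tested with edgeR 4.0.16 in R 4.3.3 (TMM, filterByExpr, quasi-likelihood test, Benjamini-Hochberg threshold 0.05), with the day as a block in the explant and no block in the adult; DESeq2 1.42.0 was an alternative. Same-run sums come from the same pools of mice, and their deviations correlated at 0.192 to 0.667 (explant days 0.018 to 0.068). Standard errors are the log2 difference divided by the root of F. On simulated counts, the explant test, both luminal RFP tests and the AP against VP test admitted more false calls than the threshold allows, so adjusted p-values near it are weak. Ratios have exact conditional 95% intervals, and genes needed 10 UMIs over both groups. All 8 members were named; genes averaging 20 CPM or more entered the likeness values. Some genes that these rules would name are not reported here. The members, gates and the list of 30 pathway genes were chosen with earlier results of these data known. Alternatives were other scaling, filters, gates, thresholds and tags, 5000 UMIs per cell, a run or day left out and others chosen after seeing the data. Python 3.11.15 and scipy 1.17.1 were used.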

Additional observations from a re-analysis of the deposited data

Results flagged for a closer look

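*Smo* moved in opposite directions with castration in the luminal cells of the anterior lobe of run 2: the castrated to intact ratio was 4.81 in RFP- cells (11 and 8 UMIs) and 0.515 in RFP+ cells (33 and 33 UMIs). The intervals, 1.76 to 13.8 and 0.308 to 0.860, lie on either side of 1. After thinning to 5000 UMIs per cell the ratio in RFP- cells was 1.59. The difference between the RFP groups was not tested, since each group is 1 pool of mice.

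Targets of the pathway were also found in adult cells outside every comparison. The 22 collagen-high cells of intact adult prostates, 8, 10 and 4 in runs 1, 2 and 3, hold 202727 UMIs in all. *Ptch1* was at 59.2 CPM in them (12 UMIs) against 6.17 in luminal-gate cells, a ratio of 9.60 (interval 4.90 to 17.0). *Gli1* was at 29.6 CPM (6 UMIs) against 0.0455 (2 UMIs), and *Hhip* was at 59.2 CPM (12 UMIs) against 0.432 (19 UMIs), a ratio of 137 (interval 60.6 to 297). Intact basal-gate cells had 15.2 CPM of *Ptch1*, between the values of the other groups, and 0.472 CPM each of *Gli1* and *Hhip*. Over runs 1, 2 and 3 *Ptch1* had 5, 7 and 0 UMIs and *Hhip* 9, 3 and 0 UMIs, the 9 of run 1 from 3 cells. Without run 2 the *Ptch1* ratio was 5.80 (interval 1.86 to 13.8). Without run 1 *Hhip* was at 25.5 CPM against 0.0286 in luminal-gate cells (3 and 1 UMIs, ratio 892, interval 71.6 to 46830), since 17 of the luminal UMIs came from 1 cell of that run. The ligand *Shh* was also higher in collagen-high than in luminal-gate cells, at 14.8 CPM (3 UMIs) against 1.84, a ratio of 8.03 (interval 1.62 to 24.3). Basal-gate cells had 31.7 CPM of it, and without run 1 the collagen-high cells held 0 *Shh* UMIs. The part of epithelial RNA in these cells was not tested. Leaving out a run was chosen after seeing the data.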

How the results depend on the processing

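Of 301 fold changes of members recomputed, 282 stayed on their side of the threshold, 8 gained a call and 11 lost one, and no called value changed sign. Of 302 ratios, 275 moved by less than their counting error. Some alternatives repeated the main setting: gates of 10 and 40 left the luminal cells unchanged, and 20 cells per sum left most adult tests unchanged. Such values could not move, so the counts of 282 and 275 overstate stability. *Shh*, *Ptch1* and *Hhip* in the explant classes, *Shh*, *Ihh* and *Gli3* between adult compartments, *Ihh* by RFP in the AP and *Shh* and *Ihh* between lobes passed under all alternatives that gave them a value, with the explant *Shh* difference between -13.06 and -4.26. Among these, *Shh*, *Hhip*, *Gli3* and *Ihh* passed the filter on low counts only through the group where they were high. Their passing under the alternatives therefore adds no support for their direction. The number of genes called moved more. In the explant classes it was 2217, 1349 with DESeq2 (779 higher, 570 lower, against 883 and 1334), 1139 after thinning and 972 to 1748 with a day left out. Without the replicate block for day it was 1926. Between compartments, 5105 became 3142 after thinning, 2566 in AP RFP+ cells alone and 2300 to 6350 with a run left out. By RFP in AP luminal cells, 1953 became 3056 with the run as a replicate block, 964 after thinning, 21 under the *Krt4*+*Psca* limit and 630 to 1292 with a run left out. In VP luminal cells, 19 became 67 with DESeq2, 125 with no filter, 103 with the replicate block, 30 with 20 cells per sum, 8 with the HTODemux tag threshold alone, 37 without the 5% of cells with the most UMIs, 9 after thinning and 0 to 50 with a run left out. Between lobes, 2639 became 902 after thinning and 1043 to 2458 with a run left out. In AP basal cells, 0 became 7 with no filter, 18 with the replicate block and 0 to 0 with a run left out. The block changed no other member's call than those given for *Ptch1* and *Smo*. The member called in castrated luminal cells (1, *Shh*) became 0 after thinning and 0 without the 5% of cells with the most UMIs, and in AP RFP+ cells 1 became 2 without them. The cause of these changes was not tested, apart from thinning and left-out runs, which leave fewer counts or samples. The explant test with a collagen gate of 40 or with 20 cells per sum gave no value because too few collagen-high cells remained. Depth limits the values of *Gli1*, *Gli2* and *Ihh* in collagen-high cells, which held 8, 3 and 0 of their UMIs.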

Other observations

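The 114 explant cells with neither an *Epcam* UMI nor the collagen level of the gate were left out of the class comparison. They held 12 *Gli1* UMIs (13.1 CPM, interval 6.74 to 22.8) and 28 *Hhip* UMIs (30.5 CPM, interval 20.2 to 44.0), levels whose intervals overlap those of the 60 collagen-high cells, at 17.3 (7.46 to 34.0) and 41.0 (24.7 to 64.1). *Gli2* had 3 UMIs in them and *Ihh* 0.

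Intact adult cells between the basal and luminal gates, at 5 to 20 keratin UMIs per 10000, numbered 502. Their *Shh* level was 26.2, 14.2 and 30.4 CPM in runs 1, 2 and 3 (mean 23.6 ± 8.41, SD, n = 3) and their *Gli3* level 13.6, 15.8 and 19.5. For both genes these values overlap or neighbour those of basal cells and lie above all luminal values. *Ihh* was at 2.91, 0 and 0.608 CPM in them, from 3, 0 and 2 UMIs. The 11 castrated luminal cells of run 1, with lobes pooled, held 6 *Ihh* UMIs (29.3 CPM, interval 10.7 to 63.7) and 0 *Shh* UMIs.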
